A study of Homo sapiens with 10 samples.

Results

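In transformed ER-Src cells, 18744 of the 73822 NFKB1 peaks on chromosomes 1 to 22 and X (25.4%, Wilson 95% interval 25.1 to 25.7%) had a summit of FOS, JUN, or JUNB within 300 bp of the NFKB1 summit and no STAT3 summit within that distance. These NFKB1 sites with AP-1 and without STAT3 were chosen by the summit positions in the NFKB1, FOS, JUN, JUNB, and STAT3 peak lists of transformed cells, and what those lists show about them is given as a description. The ER-Src line is MCF-10A, an immortalised and non-tumorigenic human mammary epithelial line, in which the v-Src oncoprotein is joined to the part of the estrogen receptor that binds ligand. Adding 4-hydroxy-tamoxifen switches v-Src on and transforms the cells. Both groups carry this fusion. Non-transformed cells were grown with ethanol, and transformed cells received 1 µM 4-hydroxy-tamoxifen for 12 h. For the ethanol cells, the peak list headers carry library names with 36 h, so the culture times may differ. The model is 1 cell line, and ChIP-seq was done for 5 proteins with 1 library per protein and state, which gives 10 peak lists and no replicates. No test between the states is therefore possible, and every interval below covers only the counting of sites within a list, not the spread between cultures.

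NF-κB proteins are held in the cytoplasm by IκB inhibitors until an inflammatory or stress signal frees them to enter the nucleus. NFKB1 encodes the precursor of a DNA-binding subunit that pairs with other members of the family. AP-1 is a dimer of FOS-family and JUN-family proteins, and JUN-family proteins can also pair with each other. STAT3 is a cytokine-responsive factor that is activated by tyrosine phosphorylation, and Src-family kinases are among the enzymes that lead to this.

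After the authors' filter the libraries held from 4837474 reads (NFKB1, non-transformed) to 22082403 reads (FOS, transformed). The NFKB1 library of transformed cells had 9674390 reads. For STAT3, the library of non-transformed cells had 10929003 reads and that of transformed cells 8967267. The fold enrichment in the lists is the pileup (how many extended reads cover the summit) plus 1, divided by the local background plus 1. With genome-wide backgrounds of 0.242 to 0.932 reads, it goes up with depth, so classes of sites are compared by it only within a library. At single sites the fold enrichments of different libraries are also listed side by side, as deposited. Differences between those values include depth and are not read as a change. Signal is compared between libraries as pileup per 1000000 filtered reads. No input library was used in peak calling, so a region that gives high signal with any antibody is not removed. The lists were mapped to hg19 per the labels, and all positions below are in that build. Gene names and sequence are not given for these sites, because no annotation or genome of that build was used here.

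The strongest sites show the range of what the class holds. By NFKB1 −log10 q-value (the significance that the peak caller MACS gives after correction for many positions), the top member was chr4:3011146-3012026, with a fold enrichment of NFKB1 over the local background of 51.5 in non-transformed and 65.0 in transformed cells. There the fold enrichment was 47.6 and 41.9 for FOS, 18.2 and 25.8 for JUN, and 19.7 and 22.8 for JUNB, in the same order. STAT3 had a peak with a fold enrichment of 11.2 in non-transformed cells, and in transformed cells its nearest summit was 419 bp away. All 5 proteins were thus listed at this site before transformation, and STAT3 was still close to it afterwards. Per 1000000 reads, the NFKB1 pileup was 13.0 before and 9.51 after transformation, so scaling for depth turned the order of the states. The second site, chr9:93822083-93823621, also lay near a STAT3 summit, at 319 bp, and had NFKB1 at 53.7 and 54.8, FOS at 52.1 and 35.8, JUN at 17.7 and 23.2, and JUNB at 25.4 and 31.0.

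Another kind of strong site had high NFKB1 with weak AP-1. At chr4:153329762-153330088, NFKB1 had a fold enrichment of 33.5 in non-transformed and 55.1 in transformed cells, while FOS had 3.71 and 9.40 and JUN had 8.93 and 11.4. JUNB was listed there only in transformed cells, at 6.54, and the nearest STAT3 summit was 16302 bp away. At chr1:52029784-52030393, NFKB1 was at 55.3 and 47.7, FOS at 4.35 and 5.77, and JUN at 3.93 and 4.80, with no JUNB peak in either state. The nearest STAT3 summit to this site was 3559 bp away. Per 1000000 reads, NFKB1 was at 8.48 and 8.37 at the first of these and at 14.1 and 7.03 at the other, while no AP-1 protein exceeded 1.14 at either site. The NFKB1 signal thus stood far above the AP-1 signal in both states, although its scale can differ between antibodies. At chr10:104153649-104154853 the pattern recurred, with NFKB1 at 44.9 and 44.7, FOS at 5.47 and 5.61, and JUNB at 5.14 in transformed cells only, but a STAT3 summit lay at 367 bp.

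**Figure D1:**
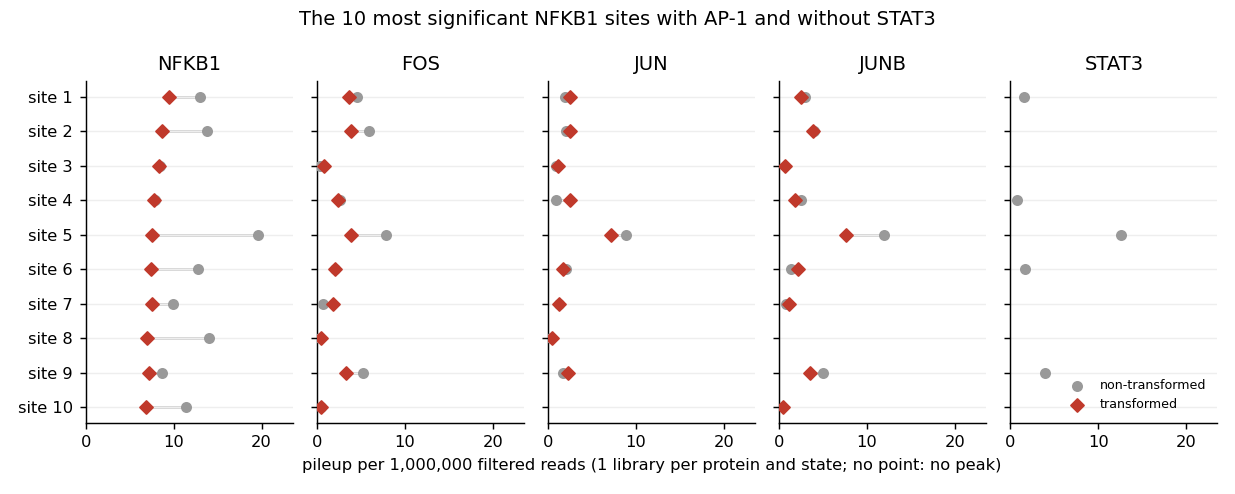
Pileup per 1000000 filtered reads (x axis) of each protein at the 10 NFKB1 sites with AP-1 and without STAT3 that had the largest NFKB1 −log10 q-value, in non-transformed (circles) and transformed cells (diamonds), 1 library each. A missing point means no peak within 300 bp. NFKB1 sits between 6.82 and 9.51 in transformed cells and is higher in non-transformed cells at all 10 sites, whereas FOS in transformed cells runs from 0.453 to 3.94. The NFKB1 difference is slight at site 3 (8.48 and 8.37) and site 4 (7.86 and 7.75). Site 5 is high in every list that has a peak there.

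The remaining sites of the top 10 had NFKB1 fold enrichments of 43.8 to 53.1 in transformed cells and were all listed for NFKB1 in non-transformed cells. By fold enrichment, 7 of the 10 sites had more NFKB1 in transformed cells, but per 1000000 reads none did. One of them, chr6:58776480-58779198, is 2719 bp long and was the longest NFKB1 peak on these chromosomes. It had fold enrichments of 51.7 (NFKB1), 45.5 (FOS), 73.6 (JUN), and 69.0 (JUNB) in transformed cells and of 77.3, 81.0, 80.2, and 78.3 in non-transformed cells, and STAT3 in non-transformed cells was at 86.5. A STAT3 summit of transformed cells lay 1335 bp away. With every antibody at a high level over a long region and no input library, whether this signal reflects binding was not tested. In all, 14 members had peaks over 1000 bp.

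As a class, these NFKB1 sites were weaker than those that also had STAT3. Their median NFKB1 fold enrichment was 5.59 (interquartile range 4.90 to 7.53, highest 65.0), against 7.69 (5.59 to 11.3, highest 89.4) at the 44783 NFKB1 sites with AP-1 and STAT3. The pileup had a median of 8 and 11 reads, respectively, and the peaks were 155 and 220 bp long at the median. A pileup of only 4 or 5 reads was found at 2057 members (11.0%, 10.5 to 11.4%) and at 1928 sites with AP-1 and STAT3 (4.31%, 4.12 to 4.50%). The median fold enrichment was 5.60 at the 1075 NFKB1 sites with STAT3 and without AP-1 and 5.30 at the 9220 with neither. Members were thus closer to the sites that lack AP-1 than to the fully shared ones.

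Members made up less of the strong NFKB1 peaks than of the weak ones. When all NFKB1 peaks were split into quartiles by fold enrichment, members made up 35.2% (34.5 to 35.9%) of the weakest quartile, then 32.2% and 20.6%, and 13.6% of the strongest. The corresponding shares with AP-1 and STAT3 were 38.2%, 52.7%, 70.5%, and 81.3%. Among the 100 most significant NFKB1 peaks only 1 was a member, and members numbered 44 of the top 1000 (4.40%, 3.29 to 5.86%) and 1286 of the top 10000 (12.9%, 12.2 to 13.5%). On single chromosomes, members made up between 22.5% (chromosome 20) and 29.1% (chromosome 19) of the NFKB1 peaks, with a median of 25.5% over 23 chromosomes. The class was therefore spread over the genome in about the proportion of NFKB1 peaks as a whole.

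AP-1 was less complete at these sites. FOS had a summit at 15509 members (82.7%, 82.2 to 83.3%), JUN at 14615 (78.0%, 77.4 to 78.6%), and JUNB at 10159 (54.2%, 53.5 to 54.9%). At NFKB1 sites with AP-1 and STAT3 the shares were 96.4%, 94.6%, and 85.8%, so the gap in percentage points was widest for JUNB. The JUNB list was also the smallest AP-1 list of transformed cells, with 101014 peaks. All 3 AP-1 proteins were found at 8261 members (44.1%, 43.4 to 44.8%), against 82.3% (81.9 to 82.6%) of the sites with STAT3. Only 1 AP-1 protein was found at 5466 members (29.2%, 28.5 to 29.8%), against 5.48% (5.28 to 5.70%). This difference held in every quartile of NFKB1 strength, since members with all 3 proteins made up 39.5%, 45.0%, 47.6%, and 48.3% from the weakest to the strongest quartile and the sites with STAT3 made up 68.2%, 76.1%, 85.3%, and 90.2%.

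Seen from AP-1, the share of NFKB1 sites that lacked STAT3 was lower with each added AP-1 protein. STAT3 was absent from 89.6% (89.0 to 90.1%) of NFKB1 sites with no AP-1 protein, 69.0% (68.0 to 70.0%) with 1, 47.8% (46.8 to 48.8%) with 2, and 18.3% (18.0 to 18.7%) with 3. The order was the same in the strongest quartile of NFKB1 peaks, with 80.7%, 62.3%, 37.1%, and 8.21%, and in the weakest, with 92.4%, 71.7%, 56.3%, and 34.8%. The lists counted here also chose the members, so these shares are a description and carry no test.

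The commonest combination after the complete set was FOS with JUN, at 3464 members (18.5%). FOS alone was found at 2614 (13.9%), JUN alone at 2507 (13.4%), and FOS with JUNB at 1170 (6.24%). JUN with JUNB made up 383 (2.04%) and JUNB alone 345 (1.84%). JUNB therefore seldom stood without FOS at these sites. At NFKB1 sites with AP-1 and STAT3, JUN with JUNB (1.10%) and JUNB alone (0.371%) were rarer still. The other incomplete sets were also rarer there, at 9.10% (FOS with JUN), 3.02% (FOS alone), 2.09% (JUN alone), and 2.03% (FOS with JUNB). An example of FOS alone is chr1:184521643-184521947, where NFKB1 had a fold enrichment of 32.4 and FOS of 8.20 in transformed cells and no protein had a peak in non-transformed cells. At chr16:64523376-64523720, JUN was the only AP-1 protein in transformed cells, at 5.47 beside an NFKB1 fold enrichment of 38.2, whereas FOS (4.74) and NFKB1 (26.2) were listed in non-transformed cells. At chr14:40231713-40232027, JUN was at 5.49 and NFKB1 at 34.3 in transformed cells, NFKB1 was at 28.2 in non-transformed cells, and the nearest STAT3 summit was 184256 bp away. With the pileup scaled for depth, NFKB1 was lower in transformed than in non-transformed cells at both sites with JUN alone. The scaled NFKB1 pileup was 6.62 in non-transformed and 5.79 in transformed cells at the chromosome 16 site. At the chromosome 14 site it was 7.03 and 4.96, in the same order. The sites given for single AP-1 proteins were chosen after their values were seen.

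**Figure D2:**
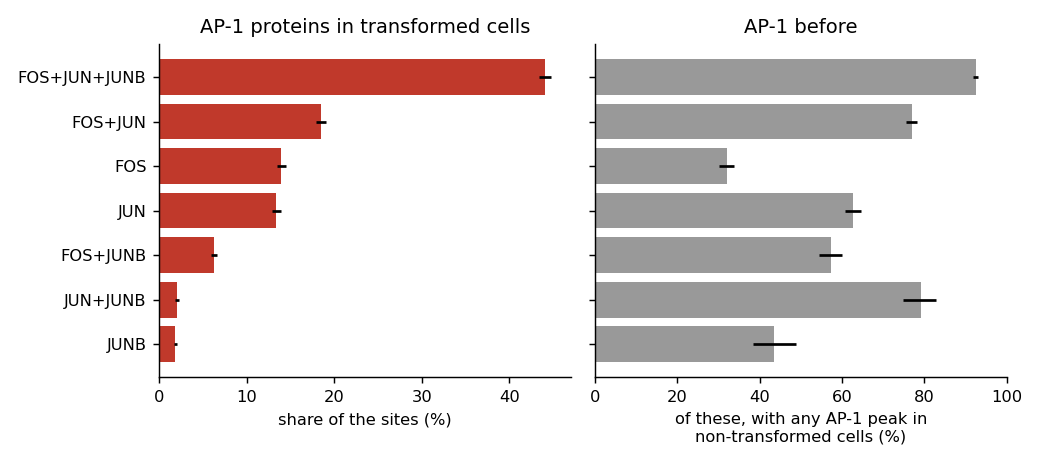
Left, share of the 18744 NFKB1 sites with AP-1 and without STAT3 that held each combination of AP-1 proteins in transformed cells. Right, share of each combination that had a peak of any AP-1 protein in non-transformed cells. Bars are Wilson 95% intervals over sites. AP-1 was listed before transformation at 92.5% of the sites with all 3 proteins and at 32.0% of those with FOS alone.

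AP-1 was also weaker where STAT3 was missing. The median fold enrichment of FOS was 8.80 at members and 19.8 at NFKB1 sites with AP-1 and STAT3, against 8.28 over all FOS peaks of transformed cells. For JUN the medians were 7.59, 12.8, and 7.18, and for JUNB 8.54, 15.1, and 8.55. Members therefore had AP-1 peaks of about the usual strength of each list, and the sites with STAT3 had stronger ones.

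The strength of AP-1 went up with that of NFKB1 where STAT3 was listed, and hardly where it was not. From the weakest to the strongest quartile of NFKB1 peaks, the median fold enrichment of FOS at sites with AP-1 and STAT3 went from 13.5 through 16.0 and 20.4 to 25.6. At members it was 8.0, 9.32, 9.32, and 9.49. JUN went from 9.02 to 17.0 with STAT3 and from 7.11 to 7.64 without it, with 8.24 in the third quartile. JUNB went from 10.7 to 20.0 with STAT3 and from 7.75 to 8.56 without it. At the median, strong NFKB1 peaks without STAT3 thus sat beside AP-1 peaks of moderate height. Single sites varied widely, since FOS in transformed cells ran from 5.61 to 45.5 at the top 10 sites named above.

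**Figure D3:**
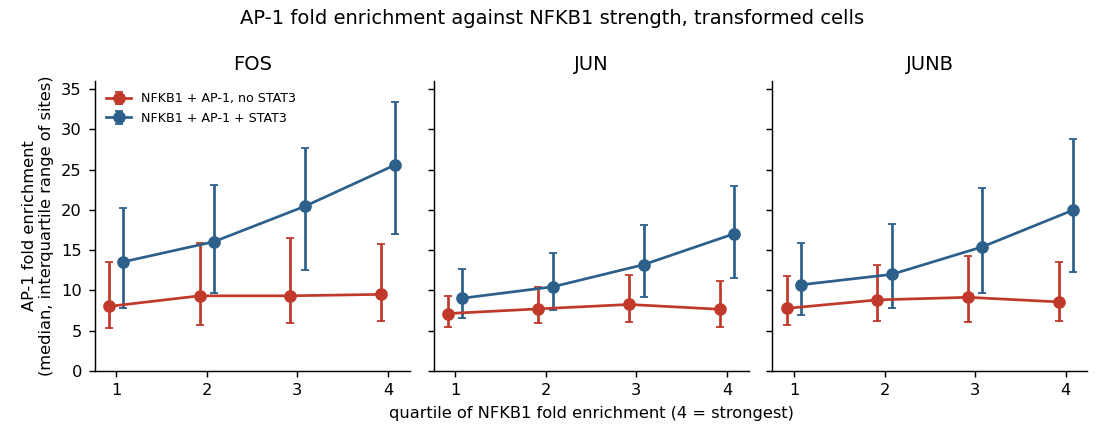
Fold enrichment of FOS, JUN, and JUNB in transformed cells (y axis) at NFKB1 sites with AP-1 and without STAT3 (red) and with AP-1 and STAT3 (blue), by quartile of NFKB1 fold enrichment (x axis). Points are medians and bars are the interquartile range over sites. The FOS median runs from 8.0 to 9.49 without STAT3 and from 13.5 to 25.6 with it.

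The AP-1 summits lay close to the NFKB1 summits. The median distance was 29 bp (29 to 30) to FOS, 30 bp (29 to 31) to JUN, and 31 bp (30 to 32) to JUNB at members, and 26, 26, and 27 bp at sites with AP-1 and STAT3. The nearest AP-1 summit of any kind was at a median of 20 bp, against 13 bp, and within 50 bp at 76.4% against 83.8%. Members had fewer AP-1 proteins to choose the nearest from, so the distances to single proteins are the closer comparison. From the weakest to the strongest quartile of NFKB1 peaks, the median distance to the nearest AP-1 summit was 31, 19, 16, and 12 bp at members and 26, 16, 12, and 10 bp at sites with STAT3. The distance thus shortened with NFKB1 strength in both classes, and the rule itself caps it at 300 bp.

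**Figure D4:**
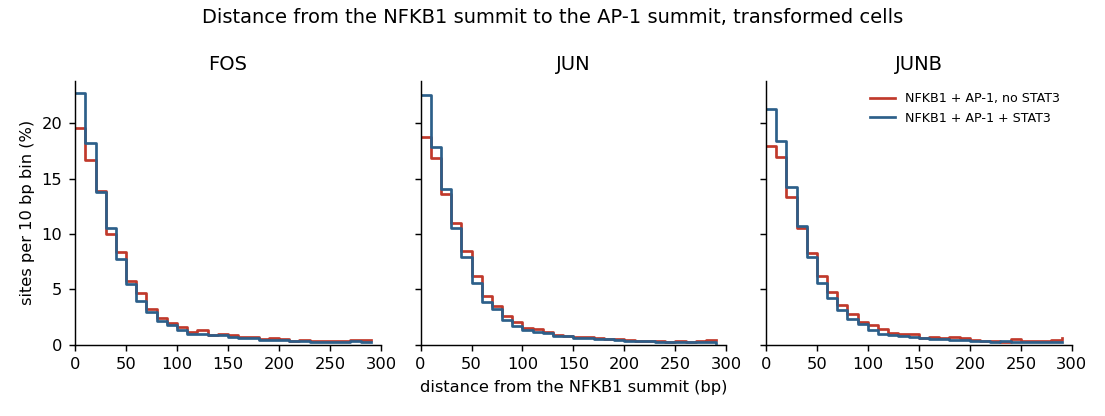
Distance from the NFKB1 summit to the nearest FOS, JUN, or JUNB summit in transformed cells (x axis, bins of 10 bp) as a share of the sites with that protein (y axis), without STAT3 (red) and with STAT3 (blue). Both classes peak in the first bin, which holds 19.6% of the FOS distances without STAT3 and 22.7% with it.

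Beyond the 300 bp of the rule, STAT3 summits lay slightly closer to members than to the NFKB1 sites with neither partner. The nearest STAT3 summit of transformed cells was at a median of 7182.5 bp (interquartile range 1721.75 to 22118.25). It lay within 500 bp at 1568 members (8.37%, 7.98 to 8.77%), within 2000 bp at 5083 (27.1%, 26.5 to 27.8%), and within 50000 bp at 16925 (90.3%). From the NFKB1 sites with neither AP-1 nor STAT3, the median was 8837.5 bp and the shares were 6.80%, 25.1%, and 86.3%. The peak itself overlapped a STAT3 peak at 834 members (4.45%, 4.16 to 4.75%). An NFKB1 peak with AP-1 and STAT3 stood within 5000 bp of 31.5% (30.9 to 32.2%) of the members, and of 29.99% (29.06 to 30.93%) of the NFKB1 sites with neither partner. Another member lay within 1000 bp of 1321 (7.05%). At the limit of the rule, the 195 members with a STAT3 summit 301 to 320 bp away had a median NFKB1 fold enrichment of 5.68, and the 229 sites just left out, at 281 to 300 bp, had 6.03. For AP-1, the 140 members at 281 to 300 bp had 5.03, and the 133 sites left out at 301 to 320 bp had 5.04.

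Before transformation, most of these sites already had AP-1 and few had NFKB1. A peak of any AP-1 protein in non-transformed cells lay within 300 bp of 13833 members (73.8%, 73.2 to 74.4%), against 76.0% of all NFKB1 peaks of transformed cells. NFKB1 itself was listed at 1898 members (10.1%, 9.70 to 10.6%), against 16.2% of all NFKB1 peaks. STAT3 was listed at 2670 members (14.2%, 13.8 to 14.8%), against 36.6%. All of these shares were lower than at NFKB1 sites with AP-1 and STAT3, which had AP-1 at 91.6%, NFKB1 at 20.8%, and STAT3 at 53.2%. The share for AP-1 is near the background of all NFKB1 peaks, which include the sites with neither partner, where it was 10.1%. The NFKB1 library of non-transformed cells was the shallowest of all, and the part of depth in these shares was not tested. A stricter significance threshold was also set in the NFKB1 list of transformed cells alone. Prior NFKB1 was then found at 33.0% of the members and 36.5% of NFKB1 sites with AP-1 and STAT3. With that threshold in all lists, prior NFKB1 was at 15.5% and 17.2%, and prior STAT3 at 7.73% and 48.4%, in the same order. The sites with neither partner then had prior NFKB1 at 17.2%. For prior NFKB1 the classes thus lay closer together among stronger peaks.

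Of the single AP-1 proteins, FOS was listed before transformation at 59.4% (58.7 to 60.1%) of the members, against 68.3% of all NFKB1 peaks. JUN was listed at 47.9% (47.2 to 48.7%), against 58.9%, and JUNB at 36.2% (35.5 to 36.9%), against 49.4%. JUNB was again the least frequent at members. Its non-transformed library had 9178601 reads, the fewest of the AP-1 libraries.

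The prior state of AP-1 went with the AP-1 proteins found afterwards, at members as at NFKB1 sites with STAT3. Any AP-1 peak was present before at 92.5% of the members with all 3 proteins, 79.1% with JUN and JUNB, 76.9% with FOS and JUN, 62.6% with JUN alone, 57.3% with FOS and JUNB, 43.5% with JUNB alone, and 32.0% (30.2 to 33.8%) with FOS alone. At NFKB1 sites with AP-1 and STAT3 the order was similar, with 96.2% for all 3 proteins, 89.3% for JUN and JUNB, 82.5% for FOS and JUN, 73.2% for JUN alone, 65.7% for JUNB alone, 54.1% for FOS and JUNB, and 35.97% for FOS alone. Of the 2614 members with FOS alone, 1778 (68.0%) had no AP-1 peak before, and 378 (14.5%) had FOS alone before. Of the 2507 with JUN alone, 860 (34.3%) had JUN alone before. Of the 8261 members with the complete set, 3762 (45.5%) had the complete set before, against 67.4% of the sites with STAT3. Another 1417 of them had FOS with JUNB before, 1174 had FOS alone, and 914 had FOS with JUN, while 622 had no AP-1.

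Among members, AP-1 was less often present beforehand where NFKB1 was strong. Over all NFKB1 peaks its share instead went up, from 62.1% in the weakest quartile to 85.8% in the strongest. AP-1 was listed in non-transformed cells at 74.3% (73.2 to 75.4%), 77.5%, and 73.8% of the members in the first 3 quartiles of NFKB1 fold enrichment and at 63.8% (61.9 to 65.6%) of those in the strongest. Among the NFKB1 peaks left by a stricter significance threshold, split anew, the shares were 71.2%, 64.2%, 60.8%, and 67.3%, so the lower share was spread over their upper 3 quartiles. At NFKB1 sites with AP-1 and STAT3 the share went the other way, from 86.2% through 89.8% and 93.2% to 94.0%, but with the stricter threshold it was 93.6%, 94.8%, 94.1%, and 93.4%, with no trend. STAT3 before transformation was found at 13.3%, 14.4%, 15.9%, and 13.6% of the members, and at 38.5% in the weakest and 66.7% in the strongest quartile of the sites with STAT3. For the strongest members this value hung on the distance to STAT3, being 17.7% with a limit of 150 bp, 8.74% with whole peaks, and 8.26% once members with a STAT3 summit within 2000 bp were left out. NFKB1 before transformation was found at 2.91%, 4.17%, 8.97%, and 44.7% of the members and at 4.30%, 5.63%, 11.8%, and 46.1% of the sites with STAT3. In each of the first 3 quartiles all of these shares were lower at members, and in the strongest the shares for NFKB1 lay close together, with intervals of 42.8 to 46.6% and 45.3 to 46.9%. Libraries of other proteins and states gave these shares, but weaker AP-1 peaks at members go together with them, and their part in the difference was not tested.

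**Figure D5:**
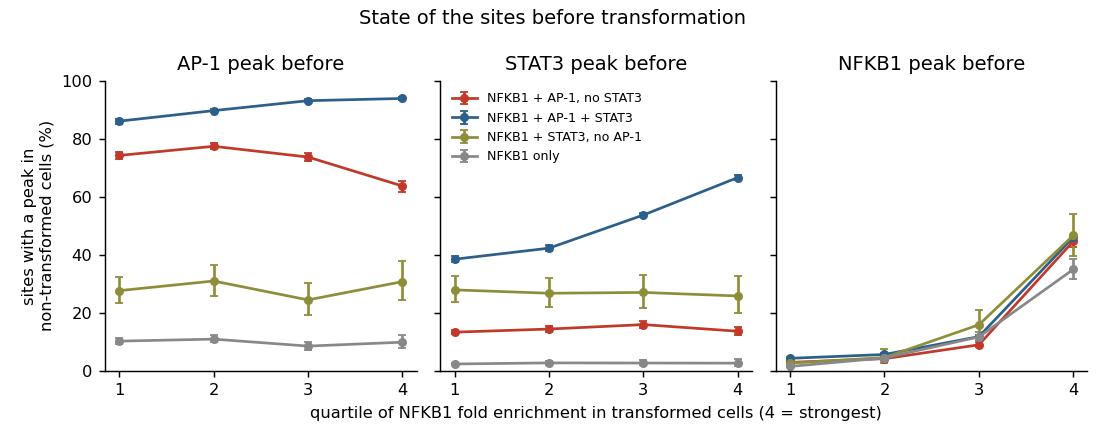
Share of NFKB1 sites of transformed cells with a peak of AP-1, STAT3, or NFKB1 in non-transformed cells within 300 bp (y axis), by quartile of NFKB1 fold enrichment in transformed cells (x axis), for the 4 classes of NFKB1 sites. Bars are Wilson 95% intervals over sites. For sites with AP-1 and without STAT3 (red), AP-1 is at 63.8% in the strongest quartile while NFKB1 reaches 44.7%.

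Put together, the prior states fell into a few patterns. AP-1 without NFKB1 or STAT3 was the state of 10324 members (55.1%, 54.4 to 55.8%), against 36.7% of all NFKB1 peaks. No peak of any of the proteins was found at 4353 (23.2%, 22.6 to 23.8%), near the 20.9% of all NFKB1 peaks. AP-1 with STAT3 and without NFKB1 was the state of 2024 (10.8%), against 24.98%. NFKB1 with AP-1 and without STAT3, the same class as afterwards, was found at 1007 (5.37%, against 4.24%), and NFKB1 with both AP-1 and STAT3 at 478 (2.55%, against 10.1%). NFKB1 with neither was found at 390 (2.08%, against 1.63%). The median NFKB1 fold enrichment in transformed cells was 12.0 for sites in the same class before and 13.8 for those with NFKB1 only, against 5.59 for sites with AP-1 only and for those with no peak before.

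The sites with no peak before were weak as a group, but some were high. The 5 with the largest NFKB1 significance had NFKB1 fold enrichments of 28.7 to 34.3 in transformed cells. At chr7:98028285-98028918, NFKB1 reached 34.3, with FOS at 6.73 and JUN at 6.04. At chr21:31526071-31526366, NFKB1 was at 32.1, FOS at 14.8, JUN at 7.14, and JUNB at 11.6. At chr4:111919515-111919793, NFKB1 was at 30.2, FOS at 17.1, JUN at 9.34, and JUNB at 5.67, and the nearest STAT3 summit was 65946 bp away. At these sites NFKB1 and AP-1 were listed together in transformed cells and neither was listed in non-transformed cells.

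Some sites had NFKB1 before any AP-1 peak. NFKB1 without AP-1 was the prior state of 413 members (2.20%). Without STAT3 this state was found at 2.08% of members and 1.63% of all NFKB1 peaks, and with STAT3 at 0.123% and 0.200%. These shares were near the background. At chr4:119831394-119831831, NFKB1 was at 18.5 before and 44.8 after transformation, and FOS (8.28), JUN (4.40), and JUNB (7.42) were listed only afterwards. At chr9:12916997-12917240, NFKB1 was at 20.4 and 38.2, with FOS (4.89) and JUN (6.56) only afterwards. At chr1:209828703-209829500, NFKB1 was at 6.84 and 29.9, with FOS (10.7), JUN (6.14), and JUNB (7.13) only afterwards, and a STAT3 summit stood 446 bp away. Per 1000000 reads, NFKB1 was at 4.55 and 6.51, 5.17 and 5.89, and 2.07 and 7.44 at these sites, higher after transformation at each. These examples were chosen after their values were seen. The AP-1 libraries of transformed cells were deeper than those of non-transformed cells, and the part of depth in these gains was not tested.

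A small group of sites was listed in both states without STAT3. NFKB1 and all 3 AP-1 proteins were present in both states, and STAT3 in neither, at 235 members (1.25%, 1.10 to 1.42%). This share was not computed over all NFKB1 peaks. The wider prior state of NFKB1 with any AP-1 and without STAT3 was at 5.37% of members and 4.24% of all NFKB1 peaks. Besides the chromosome 9 site above, the most significant was chr4:103446269-103446693, where NFKB1 was at 38.1 in non-transformed and 46.0 in transformed cells, FOS at 8.21 and 19.3, JUN at 11.5 and 12.0, and JUNB at 5.63 and 10.3. At chr15:35895551-35895884, NFKB1 was at 42.5 and 44.8, FOS at 29.8 and 28.2, JUN at 11.0 and 16.2, and JUNB at 21.8 and 16.7. At chr3:151267717-151268208, NFKB1 was at 25.5 and 42.8, FOS at 31.7 and 23.5, JUN at 8.55 and 13.9, and JUNB at 20.0 and 14.7. Per 1000000 reads, NFKB1 was lower after transformation at the first (9.92 and 7.55) and the second of these (11.0 and 6.62) and about level at the third (6.41 and 6.62). JUN was about level at the first (1.26 and 1.25) and higher at the other two, while FOS and JUNB were higher at the first and lower at the other two. The nearest STAT3 summit of transformed cells was between 21484 and 26645 bp away at these 3 sites.

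Over the sites listed in both states, the pileup per 1000000 reads was compared as the ratio of transformed to non-transformed cells. The interquartile range of this ratio over members was 0.703 to 1.32 for FOS, 0.913 to 1.57 for JUN, 0.656 to 1.21 for JUNB, and 0.592 to 1.18 for NFKB1. Single sites thus moved in both directions. The median ratio of transformed to non-transformed cells at members was 0.945 for FOS (10260 sites), 1.19 for JUN (8381 sites), and 0.874 for JUNB (5855 sites), against 0.937, 1.29, and 0.957 over all sites of each protein listed in both states. At NFKB1 sites with AP-1 and STAT3 the ratios were 0.980, 1.43, and 1.09. JUN was thus the AP-1 protein with the highest ratio at members. The ratios of all 3 AP-1 proteins were lower there than where STAT3 was present, only slightly so for FOS. For NFKB1, the ratio was 0.821 at the 1898 members listed in both states and 1.08 at the 9299 sites with STAT3. A site must pass the threshold in the shallower non-transformed library to be counted there, so the ratio is not free of that selection. Nor is it corrected for the length of the extended reads.

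STAT3 was present before transformation at some members and was not listed there afterwards. At these 2670 sites the STAT3 peak of non-transformed cells had a median fold enrichment of 6.06 (interquartile range 5.18 to 7.09), against 8.15 at the 23831 NFKB1 sites with AP-1 and STAT3 in transformed cells that had STAT3 before. A STAT3 summit of transformed cells lay within 500 bp at 418 (15.7%) of them. The most significant was chr5:140940323-140940685, where STAT3 had a fold enrichment of 99.6 in non-transformed cells and no summit within 1179 bp in transformed cells. There NFKB1 was listed only after transformation, at 13.4, and FOS (13.4 and 12.1), JUN (8.32 and 10.7), and JUNB (5.40 and 5.21) were listed in both states. Of the next 4 by prior STAT3, chr6:58776480-58779198 is the long region described above, and chr19:45257382-45257842, chr3:112497253-112497416, and chr11:356237-356465 had STAT3 summits at 311, 309, and 313 bp in transformed cells, just past the limit. At most of the sites named here, STAT3 thus lay close by in transformed cells, but over all 2670 this was the exception. Of the 2618 distinct STAT3 peaks of non-transformed cells at these members, 171 (6.53%) had a STAT3 summit of transformed cells within 300 bp of their own summit. The share was 70.9% over all STAT3 peaks of non-transformed cells, but the rule itself keeps it low at members.

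Followed forward from non-transformed cells, the same class was kept at a minority of sites. Of the 13252 NFKB1 peaks of non-transformed cells, 3495 had AP-1 and no STAT3. In transformed cells, 972 of these (27.8%, 26.4 to 29.3%) were again NFKB1 sites with AP-1 and without STAT3, whereas 1996 (57.1%, 55.5 to 58.7%) were NFKB1 sites with AP-1 and STAT3. At 413 (11.8%) no NFKB1 peak was listed. Over all 13252 NFKB1 peaks, 13.9% became members, 69.8% became NFKB1 sites with AP-1 and STAT3, and 10.7% had no NFKB1 peak, so the loss of NFKB1 was near the general share. In the other direction, only 466 of the 7899 NFKB1 sites with AP-1 and STAT3 (5.90%) became sites without STAT3, and 6912 (87.5%) stayed in their class. Of the 1677 NFKB1 sites with neither partner before, 380 (22.7%) were members afterwards. A gain of STAT3 was thus more frequent than its loss at NFKB1 and AP-1 sites. The whole STAT3 list also held more peaks in transformed cells (80265) than in non-transformed cells (42810). The part of list size or depth in this was not tested.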

How the data were processed

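The 10 ChIP-seq peak lists (5 proteins, non-transformed and transformed ER-Src cells, 1 library each) were analysed. The authors called peaks per library with MACS 2.0.10.20131216 from unique 36 bp reads, without a control. They kept 1 read per position, took the local background over 1000000 bp, set the genome size to 2700000000 bp, and cut at a q-value of 0.05. Per the labels, Bowtie and hg19 were used. The deposited pileup is the signal in reads, not scaled for depth. Scaling per 1000000 reads does not correct for fragment length, which was 135 bp for NFKB1 in non-transformed cells and 120 bp in transformed cells. Fold enrichment, as deposited, is the ratio of pileup plus 1 to local background plus 1, since in each of the 10 lists the smallest background this gives equals the genome average (0.430 reads for NFKB1 in transformed cells). The deposited −log10 p-value and q-value are those of MACS. Only peaks on chromosomes 1 to 22 and X were used. Summits within 300 bp counted as shared, and nearest summits gave distances. Intervals are Wilson 95% intervals, or order-statistic intervals for medians, and cover counting error only. The members and lists were chosen with earlier results of these data known. Sites were named by NFKB1 −log10 q-value (the 10 largest, and the 5 largest with no peak before or in both states without STAT3) or by prior STAT3 −log10 q-value (5), except where stated. Python 3.11.15, numpy 2.4.6, pandas 2.3.3, scipy 1.17.1, and matplotlib 3.10.9 were used. The rule was tested on simulated data, where 100% of 20000 sites were classed correctly. Transcription starts and motifs were not analysed here, since no hg19 reference was used. Alternatives were other distances, whole peaks, stricter thresholds, merged NFKB1 summits, at least 2 AP-1 proteins, and, chosen after seeing the data, no STAT3 within 2000 bp.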

Additional observations from a re-analysis of the deposited data

Results flagged for a closer look

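Outside chromosomes 1 to 22 and X, which no comparison above used, the NFKB1 list of transformed cells held 48 peaks. Of these, 10 had an AP-1 summit within 300 bp and no STAT3 summit. They were picked out because they are signal in rows left out of the main results, and with no input library their origin was not tested.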

How the results depend on the processing

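The 7 results below were recomputed under 8 alternatives (7 planned and 1 added after seeing the data): the number of members (18744), the share with all 3 AP-1 proteins (44.1%), the median NFKB1 fold enrichment (5.59), the median distance to the nearest AP-1 summit (20 bp), and the shares with NFKB1 (10.1%), AP-1 (73.8%), and STAT3 (14.2%) in non-transformed cells. Merging NFKB1 summits moved none of them beyond its interval. With 150 bp they became 43.3% for all 3 AP-1 proteins, 5.76 for fold enrichment, 19 bp, 10.7% for prior NFKB1, and 73.0% for prior AP-1. With 500 bp, all 3 AP-1 proteins became 45.7%, the distance 21 bp, and prior AP-1 74.9%. With whole peaks, prior NFKB1, AP-1, and STAT3 became 9.24%, 72.8%, and 12.5%. Keeping in all lists only peaks at or above the median −log10 q-value of 9.41 left 6197 members, with 52.0% for all 3 AP-1 proteins, a fold enrichment of 10.5, 12 bp, and prior NFKB1, AP-1, and STAT3 of 15.5%, 69.2%, and 7.73%. Applying that threshold to the NFKB1 list alone left 3958 members, with 48.2%, 11.1, 13 bp, 33.0%, 66.1%, and 14.8% in the same order. Requiring at least 2 AP-1 proteins, before transformation too, gave 62.2% for all 3, a fold enrichment of 5.65, 15 bp, prior AP-1 of 60.2%, and prior STAT3 of 16.5%. Leaving out members with a STAT3 summit within 2000 bp gave 46.1% for all 3 AP-1 proteins, 19 bp, prior AP-1 of 74.5%, and prior STAT3 of 12.4%. Under all these settings, members had lower shares of prior AP-1 and prior STAT3 than NFKB1 sites with AP-1 and STAT3.

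No paired analysis was possible because each protein has 1 library per state, and leaving out a replicate was impossible for the same reason. The alternatives for transcription starts and motifs were not run. Depth limits the absence of STAT3: its library of transformed cells held 8967267 reads, and a site below its threshold counts as without STAT3.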
